A study of Rattus norvegicus with 28 samples.

Results

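The Smad proteins carry the signal of transforming growth factor β (TGF-β) from the cell surface to the genome, and a small set of inhibitors limits it. The 10 genes described here are 7 Smads (Smad1, Smad2, Smad3, Smad4, Smad5, Smad6 and Smad7), the nuclear corepressors Ski and Skil, and the membrane protein Pmepa1. They were chosen by name, with earlier results of these data known. All 10 were found among the 30178 genes that the authors deposited in units of FPKM. FPKM is a read density per unit of gene length that is scaled to library size. NRK-49F cells, an established line of rat kidney fibroblasts, were profiled by RNA-seq in 4 groups with 2 libraries per group. The control group had no treatment named, the TGF-β group had TGF-β1 for 48 h, and the other two groups had TGF-β1 for 48 h together with methionine restriction (MetR) or with siRNA to Hoxc8, a homeobox transcription factor (siHoxc8). Per the labels' protocols, all cells were starved for 24 h in 0.2% serum, TGF-β1 was given at 5 ng per uL as the labels print it, and the MetR medium held 30 uM methionine against 200 uM in its control version.

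The labels do not say whether the control and TGF-β libraries had the control version of the MetR medium, so a change of medium and a change of methionine cannot be told apart. No control siRNA is named for the RNA-seq libraries, so an effect of transfection and the loss of Hoxc8 cannot be told apart. The labels give 48 h for the treated libraries and no time for the control ones. A difference in time in culture and an effect of TGF-β thus cannot be told apart. Separate cultures are not stated for the libraries of a group either, and p-values thus measure only the spread between these libraries, which may be technical. Hoxc8, the siRNA target, stood at 1.12 and 1.34 FPKM in control, 4.32 and 5.01 with TGF-β, 0.417 and 0.614 with MetR, and 0.463 and 0.0771 with siHoxc8. Both combined treatments lay below every control and TGF-β library.

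As background, TGF-β binds a pair of receptor kinases, and the type I receptor phosphorylates Smad2 and Smad3, the receptor-regulated Smads of this branch. Receptors for bone morphogenetic proteins (BMPs) phosphorylate Smad1 and Smad5 instead. The phosphorylated Smads join Smad4, the common partner, enter the nucleus and bind DNA. Smad6 and Smad7 are inhibitory Smads that act at the receptors, Ski and SnoN (the product of Skil) hold Smad complexes in a repressed state, and Pmepa1 keeps Smad2 and Smad3 from the receptor. In kidney fibrosis Smad3 is known as a driver of matrix gene expression and Smad7 as its brake. Messenger RNA was measured here, and phosphorylation and protein levels were not analysed here.

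Promoter sequence is shown for the 3 genes that rose with TGF-β (Skil, Smad7 and Pmepa1) and for Smad3, which fell, because Smads bind short DNA motifs near the genes they regulate. Each line gives the 250 bases before the RefSeq start site, 5′ to 3′ on the strand of the gene, in build GRCr8. Capitals mark matches to CAGAC (or GTCTG, the same motif on the other strand), the core of the Smad3 and Smad4 binding box, and to GGCGCC, a GC-rich motif that reads the same on both strands.
Smad7, chr18:71263258-71263507, plus strand: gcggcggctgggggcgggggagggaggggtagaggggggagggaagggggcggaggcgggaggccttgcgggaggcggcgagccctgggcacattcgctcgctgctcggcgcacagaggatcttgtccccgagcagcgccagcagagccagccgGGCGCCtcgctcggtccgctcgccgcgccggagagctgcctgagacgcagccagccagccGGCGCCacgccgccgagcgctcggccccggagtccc
Skil, chr2:114203573-114203822, minus strand: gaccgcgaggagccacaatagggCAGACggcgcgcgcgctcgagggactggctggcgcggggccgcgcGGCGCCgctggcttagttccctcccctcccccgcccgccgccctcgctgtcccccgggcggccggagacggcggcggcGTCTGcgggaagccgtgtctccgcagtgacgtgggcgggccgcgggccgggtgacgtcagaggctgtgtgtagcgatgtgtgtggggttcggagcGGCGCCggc
Pmepa1, chr3:182478650-182478899, minus strand: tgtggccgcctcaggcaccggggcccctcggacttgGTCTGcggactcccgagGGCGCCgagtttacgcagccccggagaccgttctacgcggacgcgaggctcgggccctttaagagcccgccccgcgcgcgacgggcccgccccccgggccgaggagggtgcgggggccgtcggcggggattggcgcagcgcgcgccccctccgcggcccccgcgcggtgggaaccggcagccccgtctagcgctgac
Smad3, chr8:73132325-73132574, minus strand: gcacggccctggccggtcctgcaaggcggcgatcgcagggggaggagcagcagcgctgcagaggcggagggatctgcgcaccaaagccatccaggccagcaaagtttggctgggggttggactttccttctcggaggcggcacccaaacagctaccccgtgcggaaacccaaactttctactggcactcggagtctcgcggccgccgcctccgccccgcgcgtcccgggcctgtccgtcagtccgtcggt

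The Skil window held 2 matches to CAGAC or GTCTG and 2 to GGCGCC. That of Pmepa1 held 1 of each, that of Smad7 had 2 matches to GGCGCC and that of Smad3 had neither motif. GGCGCC was also in both windows of Smad2, which was not called in any comparison with all libraries in the model, so that 5 of the 10 windows found for these genes held it, and 2 of the 10 held CAGAC. Over all 33469 windows of this length in RefSeq, 42.9% held CAGAC on either strand, so its presence is common. GGCGCC was found in 8.69% of all windows, whose median GC content was 51.2%, against 78.0% for Smad7, 77.2% for Skil, 78.4% for Pmepa1 and 68.4% for Smad3. Of the other windows, those of Smad4 (30.8%) and Smad5 (42.8%) were below that median. Those of Smad1, Smad2 and Ski were above it, at 64.8% to 82.8%. Whether each window lies at the start site used in these cells was not tested. The 8-base palindrome GTCTAGAC, a Smad binding element, was in 0.173% of all windows and in none of the 10 windows found for 9 of the genes. The motifs can overlap by 1 base, the matches are descriptions of letters only, and these windows say nothing about sites further away.

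The whole-read counts behind the FPKM values could be recovered and summed to 15118113 to 20146870 reads per library, with 128 to 10168 reads for each of the 10 genes in each library. All 10 passed the filter of at least 1 FPKM in at least 2 libraries, and 12315 genes were tested. Of 9 fibroblast markers found, 7 reached 1 FPKM in at least 1 library and Thy1 was listed at 0 in all. They summed to 6287 to 6352 FPKM in control, 11270 to 12050 with TGF-β, 5628 to 8282 with MetR and 9357 to 9877 with siHoxc8. These sums came mostly from Col1a1, Vim and Col3a1, and the markers did not all rise with TGF-β. Of the 6 tested, 1 was raised over control (Vim), 2 were lowered (Pdgfra and Pdgfrb) and 3 did not pass the threshold given below. Mean Pdgfra was 27.2 FPKM in control and 8.4 with TGF-β, and mean Pdgfrb 22.8 and 8.3. The 8 epithelial markers summed to 0.436 to 6.93 FPKM, and only Krt7 reached 1 FPKM, with Epcam, Umod and Aqp2 listed at 0. Their sum was 1.57 to 1.71 FPKM in control, 1.36 to 1.43 with TGF-β, 6.3 to 6.93 with MetR and 0.436 to 0.609 with siHoxc8. The 5 endothelial markers found summed to at most 0.908 FPKM. The 6 immune markers summed to 18.0 to 56.0 FPKM, mostly from Cd14, with 34.3 to 36.9 FPKM in control, 42.9 to 54.3 with TGF-β, 18.0 to 23.0 with MetR and 53.9 to 56.0 with siHoxc8. The part of these markers in the results below was not tested. In bulk RNA, fewer cells of a type and less RNA per cell cannot be told apart. The MetR replicates differed most, with 372 genes at least 2-fold apart on the log2(FPKM + 1) scale against 152 to 166 in the other groups. The TGF-β replicates came next by the SD between replicates over all tested genes on that scale. It was 0.177 in control, 0.223 with TGF-β, 0.3065 with MetR and 0.186 with siHoxc8.

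Values are FPKM, with means ± SD over the 2 libraries of a group, and a fold is a ratio of mean FPKM. Changes are log2 fold changes ± SE of log2(FPKM + 1), a scale that understates the change of low values. Tests are from limma with a spread shared by all 8 libraries, two-sided, with Benjamini-Hochberg adjustment over all 12315 genes and a threshold of 0.05. The 95% intervals are for a single gene, unadjusted.

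**Figure D1:**
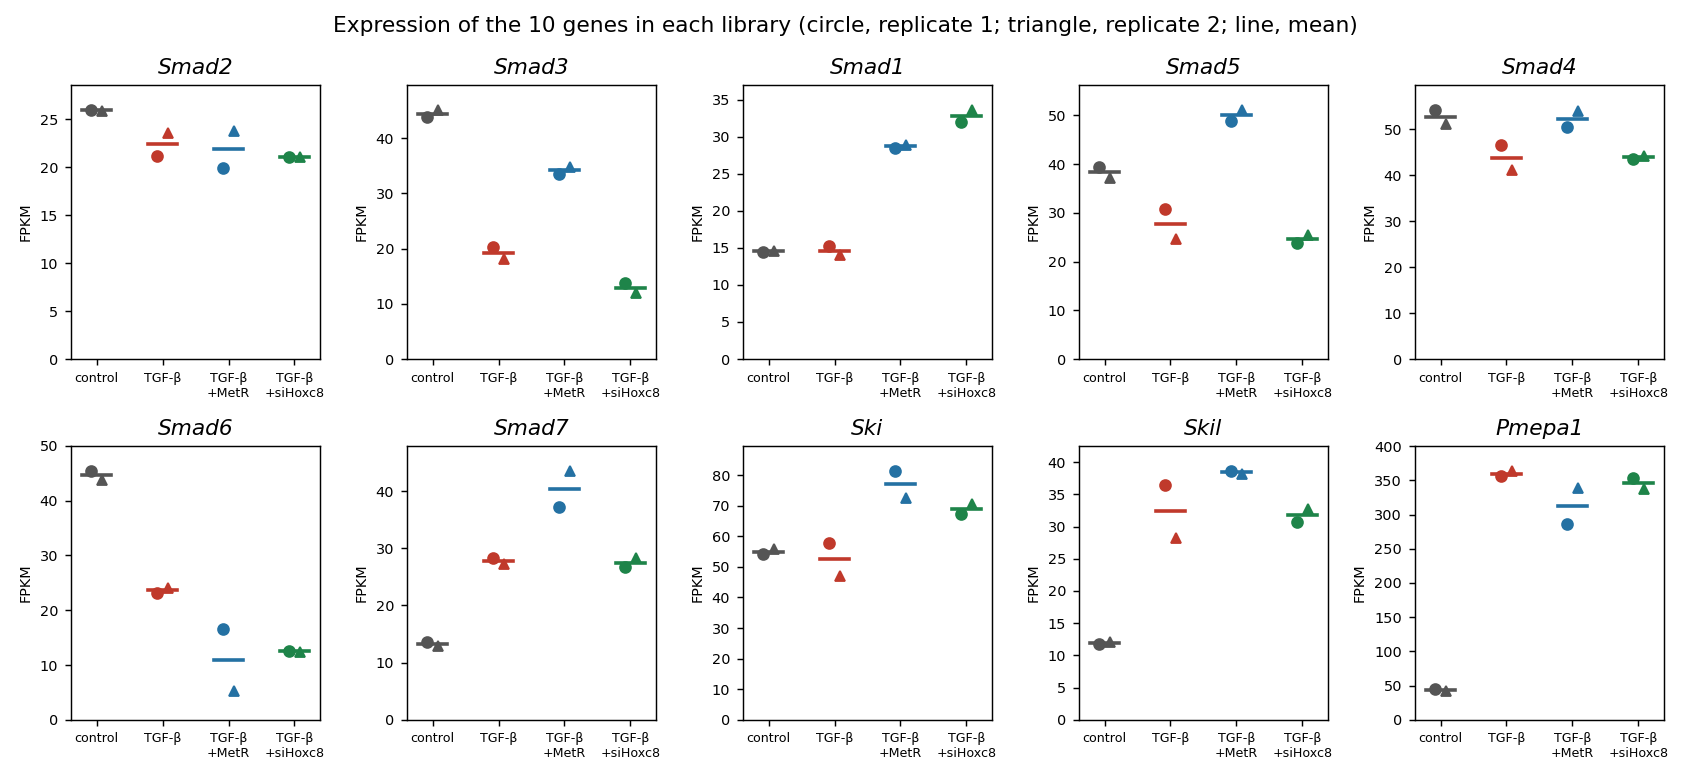
FPKM (y axis, from 0, its own scale in each panel) of the 10 genes in the 4 groups (x axis). Circles are replicate 1, triangles replicate 2 and lines group means. Smad3 and Smad6 sit highest in control, Smad7, Skil and Pmepa1 lowest in control, and Smad1 stands near 14.6 FPKM in control and TGF-β and above 28 FPKM in both combined treatments. The replicates of Smad6 under MetR lie far apart, at 16.5 and 5.34 FPKM.

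Smad2 and Smad3, the paired transducers of the TGF-β branch, did not move together. Smad2 stood at 26.0 and 25.9 FPKM in control, 21.2 and 23.5 with TGF-β, 19.9 and 23.8 with MetR, and 21.0 and 21.1 with siHoxc8. The control libraries were the highest, and the MetR libraries spanned the TGF-β and siHoxc8 ones. None of its 6 comparisons passed with all libraries in the model, and its change with TGF-β was -0.21 ± 0.11 (limma adjusted p = 0.185, 95% interval -0.47 to 0.06) and 0.02 after median ratio rescaling. Against control it passed as lower with MetR after quantile normalization or without MetR replicate 2 (adjusted p = 0.0155 and 0.0153, and 0.101 otherwise). With siHoxc8 against control it passed after quantile normalization, with the 4 libraries alone and without MetR replicate 1 or 2 (adjusted p = 0.00379 to 0.034 over these settings, and 0.0682 with all libraries).

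Smad3 covered a range of 3.79-fold between its highest and lowest library. Its values were 43.8 and 45.2 FPKM in control, 20.3 and 18.2 with TGF-β, 33.6 and 34.8 with MetR, and 13.9 and 11.9 with siHoxc8. No group overlapped another, and the order was control, MetR, TGF-β, siHoxc8. TGF-β lowered it 2.31-fold (-1.17 ± 0.11, limma adjusted p = 0.000292). Against TGF-β alone, Smad3 was 1.78-fold higher with MetR and 1.49-fold lower with siHoxc8 (-0.55 ± 0.11, limma adjusted p = 0.00561). The latter call was lost without siHoxc8 replicate 2 (-0.44, adjusted p = 0.0563), which was the highest of the 16 alternatives, the lowest being 0.00186. The test between the 2 combined treatments gave -1.35 ± 0.11 for siHoxc8 against MetR (limma adjusted p = 7.82e-05). With MetR the gene was still below control (-0.37 ± 0.11, limma adjusted p = 0.0208). That last call was lost without control replicate 1 or 2 (adjusted p = 0.0849 and 0.116).

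Smad1 and Smad5, the transducers of the BMP branch, also differed from each other. Smad1 stood at 14.5 and 14.6 FPKM in control, 15.2 and 14.0 with TGF-β, 28.5 and 29.0 with MetR, and 32.0 and 33.6 with siHoxc8. Control and TGF-β overlapped, while both combined treatments lay above every library of either. Its change with TGF-β was 0.00 ± 0.09 (limma adjusted p = 0.977, 95% interval -0.21 to 0.22). Against TGF-β alone Smad1 rose 1.96-fold with MetR (0.93 ± 0.09, limma adjusted p = 0.000258) and 2.24-fold with siHoxc8 (1.11 ± 0.09, limma adjusted p = 0.000139). The difference between those 2 treatments did not pass (0.18 ± 0.09, adjusted p = 0.127, 95% interval -0.03 to 0.40), though it did after quantile normalization (adjusted p = 0.0319).

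Smad5 followed another course. It stood at 39.5 and 37.2 FPKM in control, 30.7 and 24.6 with TGF-β, 48.9 and 51.1 with MetR, and 23.9 and 25.5 with siHoxc8. The MetR libraries were the highest of all 8, and the TGF-β and siHoxc8 libraries overlapped. With TGF-β it was lower (-0.47 ± 0.12, limma adjusted p = 0.0192), a call that ended after median ratio rescaling (-0.24, adjusted p = 0.153). It also ended on leaving out either control library, replicate 1 (adjusted p = 0.123) or replicate 2 (0.0777), or TGF-β replicate 2 (-0.31, 0.0731), and the 16 alternatives ran from 0.0101 to 0.153. MetR raised it 1.81-fold over TGF-β alone (0.84 ± 0.12, limma adjusted p = 0.00106). With siHoxc8 the change from TGF-β alone was -0.15 ± 0.12 (adjusted p = 0.348, 95% interval -0.43 to 0.13), and siHoxc8 stood 2.03-fold below MetR (limma adjusted p = 0.000429).

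Smad4, which both branches share, varied little. Its values were 54.2 and 51.2 FPKM in control, 46.6 and 41.1 with TGF-β, 50.4 and 54.0 with MetR, and 43.6 and 44.2 with siHoxc8. Control and MetR overlapped, as did TGF-β and siHoxc8, and the former pair lay above the latter. No comparison passed with all libraries in the model. The change with TGF-β was -0.26 ± 0.10 (limma adjusted p = 0.069) and -0.03 after median ratio rescaling (adjusted p = 0.802), and it passed without TGF-β replicate 1, MetR replicate 1 or MetR replicate 2 (adjusted p = 0.0445, 0.0335 and 0.0337). The change with MetR against TGF-β alone was 0.25 ± 0.10 (adjusted p = 0.0653), and it passed without TGF-β replicate 1 or MetR replicate 1 (adjusted p = 0.0365 and 0.0377). With siHoxc8 against control it was -0.26 ± 0.10 (adjusted p = 0.0633), and 6 alternatives passed: quantile normalization, the 4 libraries alone, and leaving out either TGF-β or either MetR library (adjusted p = 0.006 to 0.0432).

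Against control the inhibitory Smads went in opposite directions, though the fall of Smad6 with TGF-β alone missed the threshold. Smad7, which blocks the TGF-β receptor, stood at 13.6 and 12.8 FPKM in control, 28.3 and 27.3 with TGF-β, 37.2 and 43.6 with MetR, and 26.7 and 28.3 with siHoxc8. The control libraries were the lowest, the MetR libraries the highest, and TGF-β and siHoxc8 overlapped. TGF-β raised it 2.1-fold (1.02 ± 0.11, limma adjusted p = 0.000474), and MetR raised it a further 1.45-fold (0.52 ± 0.11, adjusted p = 0.00506). With siHoxc8 its change from TGF-β alone was -0.02 ± 0.11 (adjusted p = 0.916, 95% interval -0.27 to 0.23).

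Smad6, which acts mainly on the BMP branch, stood at 45.5 and 43.7 FPKM in control, 23.2 and 24.0 with TGF-β, 16.5 and 5.34 with MetR, and 12.6 and 12.3 with siHoxc8. Control lay above every other library, TGF-β lay next, and the MetR libraries fell on either side of siHoxc8. The MetR replicates, at 457 and 128 reads, differed 3.1-fold, and the other groups' replicates by at most 1.04-fold, and the spread used in every test of this gene includes that pair. The 1.89-fold lower mean with TGF-β missed the threshold (-0.89 ± 0.39, limma adjusted p = 0.108, 95% interval -1.80 to 0.02). It passed with the 4 libraries alone (adjusted p = 0.00162), with limma-voom (0.0444) and on leaving out MetR replicate 1 (0.000224) or 2 (0.000201). For siHoxc8 against TGF-β alone the change was -0.87 ± 0.39 (adjusted p = 0.109), and it passed with the 4 libraries alone (0.00176) and on leaving out MetR replicate 1 (0.000177) or 2 (0.00016). MetR lowered it below TGF-β alone (-1.22 ± 0.39, adjusted p = 0.0309), with a change of -1.96 on leaving out MetR replicate 1 and -0.49 on leaving out MetR replicate 2. That call was lost with no filter on low values, with the 4 libraries alone and without either control or either TGF-β library (adjusted p = 0.0505 to 0.124 over these 6 settings). Against control Smad6 was lower with MetR (-2.11 ± 0.39, adjusted p = 0.00268) and with siHoxc8 (-1.76 ± 0.39, adjusted p = 0.00784), and both calls held under all 16 alternatives, the former at -2.85 without MetR replicate 1 and -1.38 without MetR replicate 2.

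Ski and Skil, a pair of related corepressors, responded to different treatments. Ski stood at 54.2 and 55.8 FPKM in control, 57.9 and 47.1 with TGF-β, 81.5 and 72.5 with MetR, and 67.2 and 70.6 with siHoxc8. Control and TGF-β overlapped and both combined treatments lay above them. The change with TGF-β was -0.07 ± 0.12 (limma adjusted p = 0.659, 95% interval -0.35 to 0.21). Against TGF-β alone Ski was higher with MetR (0.55 ± 0.12, adjusted p = 0.00645) and with siHoxc8 (0.39 ± 0.12, adjusted p = 0.0314). The first call was lost after median ratio rescaling (adjusted p = 0.061). The siHoxc8 call was lost under 8 of 16 alternatives, among them both rescalings and leaving out control replicate 1 or 2, TGF-β replicate 2 or siHoxc8 replicate 1 or 2 (adjusted p = 0.0643 to 0.157 for these libraries, and 0.189 after median ratio rescaling).

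Skil stood at 11.75 and 12.03 FPKM in control, 36.5 and 28.2 with TGF-β, 38.7 and 38.2 with MetR, and 30.8 and 32.7 with siHoxc8. The control libraries lay far below the other 6, which ran together from 28.2 to 38.7 FPKM. TGF-β raised it 2.72-fold (1.36 ± 0.13, limma adjusted p = 0.000298). Neither combined treatment differed from TGF-β alone past the threshold, with changes of 0.25 ± 0.13 for MetR (adjusted p = 0.129, 95% interval -0.04 to 0.55) and -0.02 ± 0.13 for siHoxc8 (adjusted p = 0.933, 95% interval -0.31 to 0.28). Without TGF-β replicate 1 the MetR change was 0.43 and passed (adjusted p = 0.0176).

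Pmepa1 had the largest change of the 10 genes with TGF-β. It stood at 44.6 and 42.1 FPKM in control, 355.8 and 364.3 with TGF-β, 285.7 and 339.4 with MetR, and 353.7 and 337.7 with siHoxc8. The 6 libraries with TGF-β lay at 285.7 FPKM or above, whatever else the cells were given. Its mean was 8.31-fold control with TGF-β, 7.21-fold with MetR (2.82 ± 0.11, limma adjusted p = 6.94e-06) and 7.98-fold with siHoxc8 (2.97 ± 0.11, limma adjusted p = 5.51e-06). Against TGF-β alone the change was -0.21 ± 0.11 with MetR (adjusted p = 0.138, 95% interval -0.46 to 0.04) and -0.06 ± 0.11 with siHoxc8 (adjusted p = 0.685, 95% interval -0.31 to 0.19). The MetR change passed after median ratio rescaling (-0.43, adjusted p = 0.00718) and without MetR replicate 2 (-0.33, adjusted p = 0.0159).

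TGF-β was compared with control first, with the limit on time in culture given above. The inhibitors Smad7, Skil and Pmepa1 rose and the transducers Smad3 and Smad5 fell, 3 and 2 of the 10 genes, and 5 did not pass. Those 5 include the inhibitors Smad6 (-0.89 ± 0.39, passing as lower under the settings given above) and Ski (-0.07 ± 0.12). The others were Smad1, Smad2 and Smad4. Among all tested genes 38.9% were called in this comparison, with 10.3% raised and 28.6% lowered, so 2 lowered of 10 is near the background. The median change of the 10 genes was -0.14, beside -0.19 over all tested genes. Median ratio rescaling, which sets the library sizes by the typical gene, brought the median of all genes to 0.01 and turned 1269 raised and 3523 lowered genes into 2350 and 2092. The calls over all genes fell from 4792 to 2320 without control replicate 1 and 2472 without control replicate 2. With it 3 of the 10 genes were raised and 1, Smad3, was lowered.

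MetR was compared with TGF-β alone next, with the limit on the medium given above. Smad1, Smad3, Smad5, Smad7 and Ski rose and Smad6 fell, and 4 did not pass. Of all tested genes 53.9% were called, 34.8% raised and 19.0% lowered. The median over the 10 genes was 0.39, beside 0.18 over all tested genes, which rescaling brought to 0.00 with 3136 raised and 3281 lowered genes in place of 4289 and 2345. After rescaling 4 of the 10 were raised and 2 lowered, Smad6 and Pmepa1.

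With siHoxc8 against TGF-β alone, Smad1 and Ski rose, Smad3 fell and 7 did not pass, where 43.8% of all tested genes were called, 28.1% raised and 15.7% lowered. The median over the 10 genes was -0.04 beside 0.13 for all genes. Rescaling brought the latter to -0.01 and the genes raised and lowered from 3460 and 1934 to 2574 and 2743, and left Smad1 raised and Smad3 lowered. Without siHoxc8 replicate 2 only Smad1 of the 10 was called, and the calls over all genes went from 5394 to 3367, or to 3152 without siHoxc8 replicate 1. The 3 genes that rose with TGF-β, Smad7, Skil and Pmepa1, were not called in this comparison under any of the 16 alternatives. The comparisons of each combined treatment with TGF-β alone share the TGF-β libraries, so their values are given side by side and not as independent evidence.

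**Figure D2:**
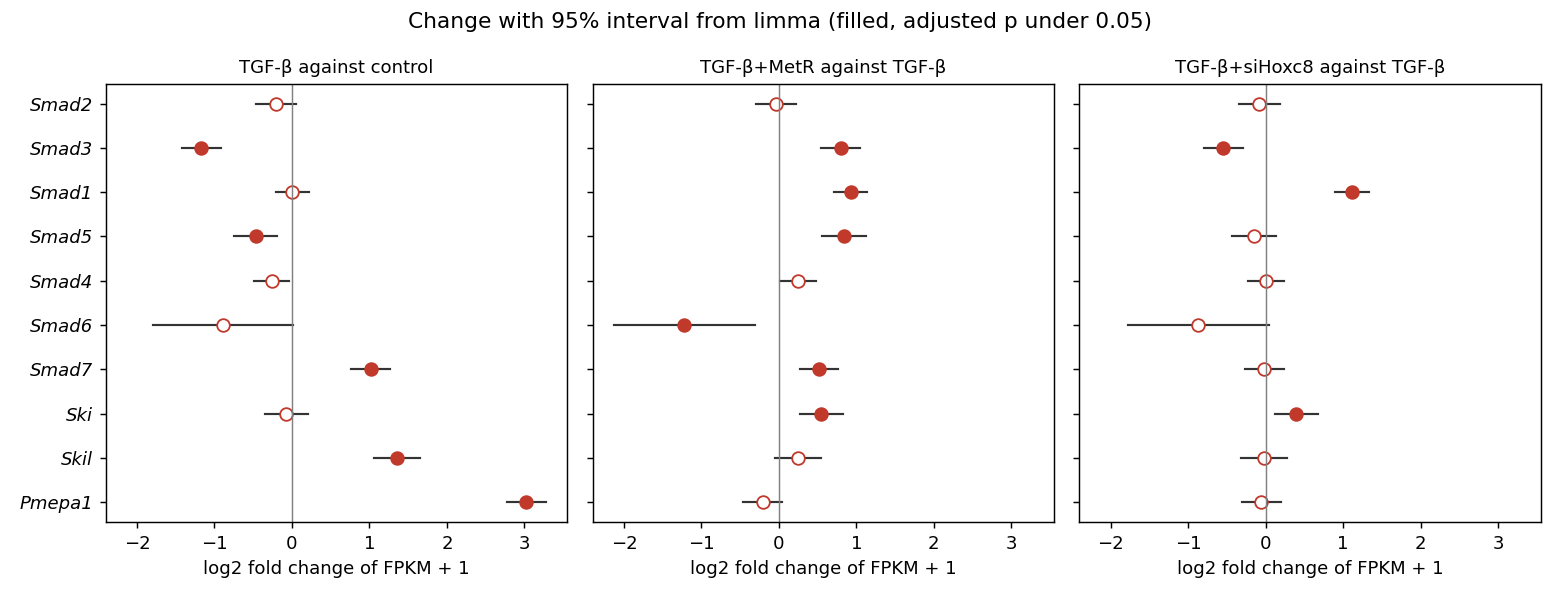
Log2 fold change of FPKM + 1 (x axis) for each gene (y axis) in the 3 comparisons, with 95% intervals from limma, filled where the adjusted p was under 0.05. With TGF-β, Pmepa1 lies farthest right at 3.03 and Smad3 farthest left at -1.17. Smad1 lies at 0.93 with MetR and 1.11 with siHoxc8, whereas Smad3 lies at 0.80 and -0.55, and the interval of Smad6 is the widest throughout.

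Set against control, Smad7, Skil and Pmepa1 were raised in both combined treatments, Smad6 was lowered in both, and Ski was raised with MetR and not called with siHoxc8. With MetR 6 of the 10 genes were raised and 2 lowered, where 57.3% of all tested genes were called, 28.0% raised and 29.3% lowered. Those above control were Pmepa1, Skil (1.61 ± 0.13), Smad7 (1.54 ± 0.11), Smad1 (0.93 ± 0.09), Ski (0.48 ± 0.12) and Smad5 (0.37 ± 0.12), and those below were Smad6 and Smad3. Without control replicate 1 or 2, Smad3, Smad5 and Ski lost their calls and 5 genes were left. Smad5 lost its call also after quantile normalization and without MetR replicate 2, siHoxc8 replicate 1 or siHoxc8 replicate 2 (adjusted p = 0.0553 to 0.0856 over these settings, and 0.0298 with all libraries). With siHoxc8 4 were raised and 3 lowered, where 48.7% of all tested genes were called, 21.7% raised and 27.0% lowered. They were Pmepa1, Skil (1.34 ± 0.13), Smad1 (1.12 ± 0.09) and Smad7 (1.00 ± 0.11) above control, and Smad6, Smad3 (-1.72 ± 0.11) and Smad5 (-0.62 ± 0.12) below it. Ski missed the threshold there (0.32 ± 0.12, adjusted p = 0.0587, 95% interval 0.04 to 0.60), and it passed after median ratio rescaling, with the 4 libraries alone and on leaving out any 1 TGF-β or MetR library (adjusted p = 0.00255 to 0.0396). Smad2 and Smad4 passed under the settings given above.

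Compared directly, siHoxc8 stood below MetR for Smad3, Smad5 and Smad7 and above it for none of the 10, where 54.2% of all tested genes were called, 24.9% raised and 29.3% lowered. Smad7 differed by -0.54 ± 0.11 (limma adjusted p = 0.0043). Without TGF-β replicate 1 or 2, Smad4 and Skil also passed as lower with siHoxc8 (adjusted p = 0.0344 to 0.0467), which made 5 genes. For Smad6 this comparison rested on 1 library, with 0.35 ± 0.39 in all (adjusted p = 0.468), 1.09 without MetR replicate 1 and -0.38 without MetR replicate 2 (adjusted p = 0.000155 and 0.00859). Leaving out MetR replicate 1 also brought Smad4 past the threshold (adjusted p = 0.0409), and leaving out MetR replicate 2 brought Pmepa1 past it (0.27, adjusted p = 0.0298).

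FPKM is scaled per length, so levels can be set side by side between genes. In control the order was Ski, Smad4, Smad6, Smad3, Pmepa1, Smad5, Smad2, Smad1, Smad7 and Skil, from 55.0 ± 1.18 down to 11.9 ± 0.195 FPKM. Ski and Smad4 overlapped, as did Smad6 with Smad3 and Smad3 with Pmepa1. With TGF-β Pmepa1 came at the top, at 360.0 ± 6.01 FPKM against 52.5 ± 7.58 for Ski, and Smad3 and Smad1 came last at 19.2 ± 1.52 and 14.6 ± 0.842. With MetR Smad6 took the last place at 10.9 ± 7.91 FPKM, and with siHoxc8 Smad3 and Smad6 overlapped there at 12.9 ± 1.38 and 12.5 ± 0.213.

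The balance between Smads shifted with treatment. The ratio of Smad3 to Smad2 was 1.69 and 1.75 in control, 0.958 and 0.772 with TGF-β, 1.69 and 1.46 with MetR, and 0.658 and 0.564 with siHoxc8. By FPKM Smad3 lay above Smad2 in control and MetR and below it in the other groups, a side that depends on the gene lengths used. In reads, which are not scaled by length, Smad3 had 1659 and 1500 with TGF-β against 998 and 1120 for Smad2. With siHoxc8 Smad3 had 1056 and 1089 reads against 924 and 1112. The ratio of Smad1 plus Smad5, the BMP branch, to Smad2 plus Smad3 was 0.774 and 0.730 in control, 1.11 and 0.925 with TGF-β, 1.45 and 1.37 with MetR, and 1.60 and 1.79 with siHoxc8. No group overlapped another. In MetR this ratio came with 77.4 and 80.1 FPKM of Smad1 plus Smad5, against 45.9 and 38.6 with TGF-β, while in siHoxc8 Smad1 exceeded Smad5 by 1.34-fold and 1.32-fold, where it was 0.496 and 0.572 of it with TGF-β. The 7 Smads summed to 237.1 and 230.7 FPKM in control, 185.5 and 172.7 with TGF-β, 235.0 and 241.6 with MetR, and 173.6 and 176.9 with siHoxc8. These sums depend on the library scaling and were not recomputed after rescaling. Over all tested genes the median change was -0.19 with TGF-β against control. Against TGF-β alone it was 0.18 with MetR and 0.13 with siHoxc8. The part of these shifts in the sums was not tested. Smad6 made up 19.1% of that sum in control and 13.2% with TGF-β, and Smad7 5.66% and 15.5%. These ratios are descriptions, and no test was made on them.

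**Figure D3:**
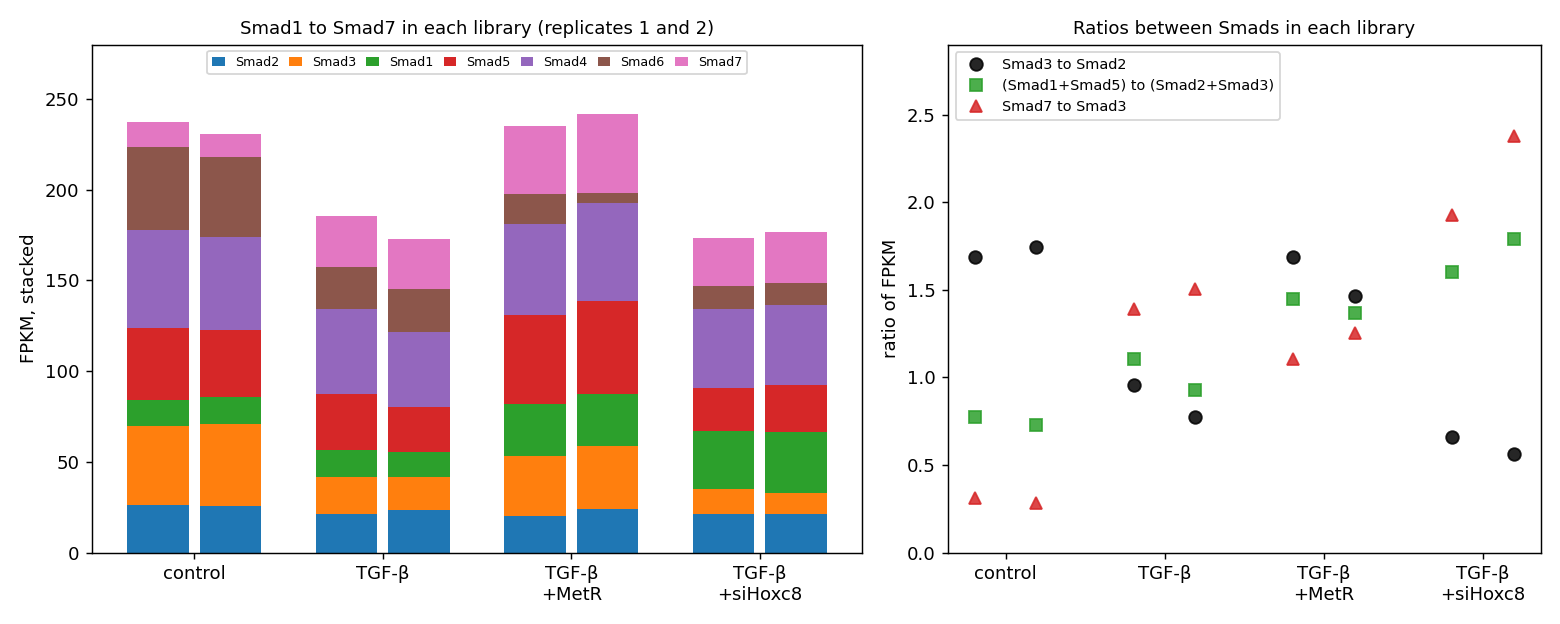
Left, FPKM of Smad1 to Smad7 stacked in each of the 8 libraries, replicate 1 then 2 in each group; right, ratios of FPKM in each library. The stacks reach about the same height in control and MetR (230.7 to 241.6 FPKM) and are lower with TGF-β and siHoxc8 (172.7 to 185.5 FPKM). These heights are FPKM without rescaling. The ratio of Smad3 to Smad2 is above 1 in control and MetR and below 1 in the other groups, and the ratio of Smad7 to Smad3 runs from 0.285 in control to 2.38 with siHoxc8.

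The pathway around these genes was described with 6 lists. Their counts are to be set beside the shares of all tested genes raised and lowered, which were 10.3% and 28.6% with TGF-β against control, 34.8% and 19.0% with MetR against TGF-β alone, and 28.1% and 15.7% with siHoxc8 against TGF-β alone. The medians over all tested genes were -0.19, 0.18 and 0.13 in the same order. Receptors that signal through Smads were raised in 2 and lowered in 5 of 11 tested cases with TGF-β (median -0.05, and 0.16 after rescaling). Of the receptors, 6 were raised and 0 lowered with MetR (median 0.46) and 6 raised and 1 lowered with siHoxc8 (median 0.35), against 34.8% and 28.1% of all genes raised. Rescaling gave 3 raised and 1 lowered with MetR, a count near the share of all genes, and 4 and 1 with siHoxc8. Bmpr1b, a type I receptor that phosphorylates Smad1 and Smad5, stood at 0.0881 and 0.089 FPKM in control, 0.942 and 1.06 with TGF-β, 19.5 and 17.7 with MetR, and 3.51 and 3.85 with siHoxc8. Each group lay above the one before it in the order control, TGF-β, siHoxc8, MetR. Against TGF-β alone it rose by 3.29 ± 0.13 with MetR (limma adjusted p = 1.84e-05) and by 1.23 ± 0.13 with siHoxc8 (limma adjusted p = 0.000355). Tgfbr3, a coreceptor of TGF-β, went from 15.3 and 14.6 FPKM in control to 3.49 and 2.38 with TGF-β. It stood at 4.72 and 4.39 FPKM with MetR and 9.07 and 7.98 with siHoxc8. Tgfbr2, a receptor of TGF-β, fell with TGF-β from 82.28 and 85.2 to 37.63 and 25.71 FPKM (-1.40 ± 0.19, limma adjusted p = 0.00148). It was not called against TGF-β alone, at 35.01 and 26.25 FPKM with MetR and 33.55 and 36.45 with siHoxc8. Acvr1b, an activin receptor that phosphorylates Smad2 and Smad3, rose with MetR (0.61 ± 0.10) and with siHoxc8 (0.88 ± 0.10).

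Nuclear partners and corepressors of the Smads were raised in 3 and lowered in 7 of 21 tested cases with TGF-β (median -0.25 beside -0.19, 3 and 2 after rescaling), where 7 lowered is near the 28.6% of all genes. With MetR 14 were raised and 2 lowered (median 0.66 beside 0.18, 10 and 2 after rescaling), and with siHoxc8 11 and 2 (median 0.46 beside 0.13, 8 and 3 after rescaling), against 34.8% and 28.1% of all genes raised. Runx1, a transcription factor that works with Smads, rose with TGF-β from 11.1 and 13.7 to 51.7 and 44.1 FPKM, and Tgif1, a Smad corepressor, rose by 0.81 ± 0.10. With MetR Sp1 rose from 10.4 and 8.22 to 28.95 and 35.97 FPKM, Foxh1, a DNA-binding partner of Smad2 that was listed at 0 in both TGF-β libraries, stood at 3.14 and 3.65 FPKM, and Atf3, a stress-induced factor, stood at 7.09 and 22.2 against 1.61 and 1.87 FPKM. With siHoxc8 Runx2 (1.35 ± 0.14), Atf3 (1.31 ± 0.41) and Zeb1 (1.19 ± 0.12) had the largest changes.

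Ubiquitin ligases and deubiquitinases of the pathway were raised in 1 and lowered in 5 of 15 cases with TGF-β (3 and 3 after rescaling), 6 and 2 with MetR (4 and 3), and 5 and 0 with siHoxc8 (3 and 1). The shares with TGF-β and the share raised with MetR were near those of all genes (10.3% raised and 28.6% lowered with TGF-β, 34.8% raised with MetR). Nedd4l, a ligase for Smad2 and Smad3, fell with TGF-β by 0.83 on the log2 scale (-0.83 ± 0.11). Nedd4 fell with MetR from 219.3 and 221.9 to 111.6 and 96.0 FPKM (-1.08 ± 0.10, limma adjusted p = 0.000212), whereas Usp4 (0.98 ± 0.19) and Usp15 (0.88 ± 0.22), which remove ubiquitin from receptors and Smads, rose. Of 16 Smad phosphatases and transport genes, 1 was raised and 6 lowered with TGF-β (1 and 3 after rescaling), and 8 were raised and 0 lowered both with MetR and with siHoxc8 (6 and 1 after rescaling in each). Of all genes 28.6% were lowered with TGF-β, and 34.8% and 28.1% were raised with MetR and with siHoxc8. The small phosphatases Ctdspl (-1.57 ± 0.12), Ctdsp2 (-1.38 ± 0.20) and Ctdsp1 (-0.71 ± 0.09) were the 3 largest falls with TGF-β, and Ppp1r15a, a regulatory subunit of protein phosphatase, had the largest rise with MetR (2.41 ± 0.27).

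TGF-β and Smad3 target genes were raised in 13 and lowered in 0 of 18 tested cases with TGF-β (median 1.17 beside -0.19, 13 and 0 after rescaling), against 10.3% of all genes raised. With MetR 4 were raised and 4 lowered (median 0.13 beside 0.18, and -0.09 with 4 and 6 after rescaling), where 34.8% and 19.0% of all genes were raised and lowered. With siHoxc8 4 were raised and 10 lowered (median -0.60 beside 0.13, 3 and 10 after rescaling), where 28.1% and 15.7% of all genes were. Ccn2, a matricellular protein, stood at 3058 and 3342 FPKM with TGF-β, 3391 and 3400.0 with MetR, and 348.9 and 387.9 with siHoxc8, below the 947.4 and 925.7 of control. Acta2, smooth muscle actin and a mark of myofibroblasts, stood at 12.5 and 11.2 FPKM in control, 527.1 and 550.5 with TGF-β, 47.3 and 29.2 with MetR, and 24.3 and 21.6 with siHoxc8. It fell from TGF-β alone in both combined treatments (-3.82 ± 0.20 with MetR and -4.50 ± 0.20 with siHoxc8). Ccn2 fell with siHoxc8 (-3.12 ± 0.11). Not all targets that rose with TGF-β were lower with siHoxc8, since Junb, Snai1 and Tgfbi rose further (1.17 ± 0.29, 0.40 ± 0.12 and 2.003 ± 0.29), and Tgfb1 and Ldlrad4 were not called (0.14 ± 0.09 and 0.11 ± 0.19). Snai1, Tgfbi, Tgfb1 and Ldlrad4 are named here after their values were seen.

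BMP and Smad1/5 target genes were raised in 1 and lowered in 3 of 9 tested cases with TGF-β (3 and 3 after rescaling), 2 and 4 with MetR (2 and 4), and 1 and 4 with siHoxc8 (0 and 4). The counts with TGF-β were near the 10.3% and 28.6% of all genes raised and lowered, and 19.0% and 15.7% of all genes were lowered with MetR and with siHoxc8. The list's medians were 0.03, -0.39 and -0.59, beside -0.19, 0.18 and 0.13 over all genes. Smad9, the third Smad of the BMP branch and itself on this list, was listed at 0 in every library. Id2, an inhibitor of differentiation factors, stood at 38.0 and 46.1 FPKM with TGF-β, 17.4 and 9.17 with MetR, and 5.32 and 7.02 with siHoxc8. Both combined treatments lay below TGF-β alone, in the same libraries in which Smad1 was higher. A link between Id2 and Smad1 was not tested. Other Id genes of the list did not all follow Id2. With siHoxc8 Id4 was lowered (-1.525 ± 0.16), and Id1 and Id3 were not called (0.45 ± 0.24 and -0.16 ± 0.17). With MetR Id3 and Id4 were lowered (-0.55 ± 0.17 and -0.63 ± 0.16), and Id1 was not called (-0.39 ± 0.24). Id1 and Id3 are named here after their values were seen. Bambi, a decoy receptor, moved in opposite directions, from 20.8 and 22.3 FPKM with TGF-β to 57.2 and 43.7 with MetR (1.18 ± 0.14, limma adjusted p = 0.000438) and 12.7 and 12.1 with siHoxc8 (-0.76 ± 0.14, limma adjusted p = 0.00357). Grem1, a secreted BMP antagonist, fell with TGF-β from 211.7 and 186.3 to 34.9 and 39.5 FPKM.

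**Figure D4:**
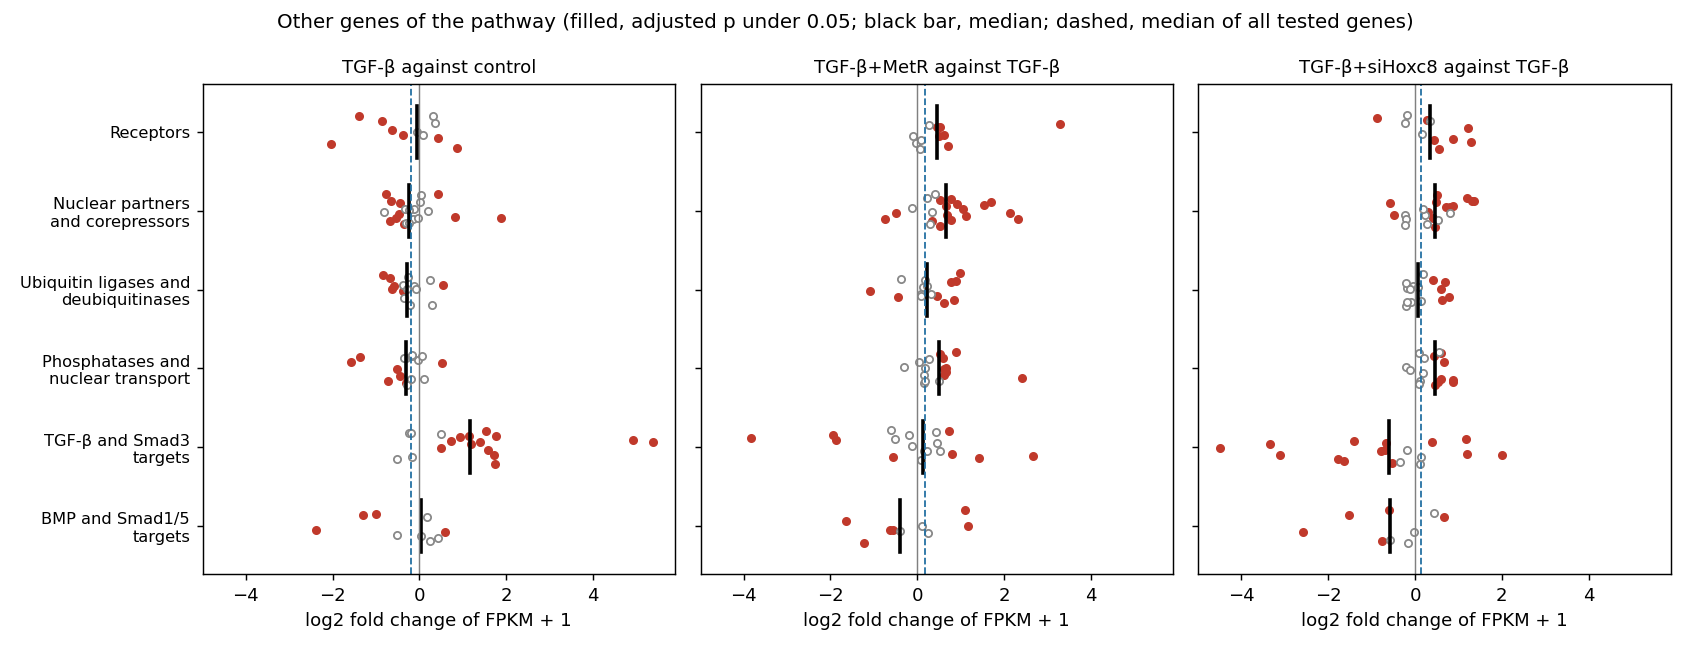
Log2 fold change of FPKM + 1 (x axis) of each tested gene of the 6 lists (rows) in the 3 comparisons, filled where the limma adjusted p was under 0.05. Black bars are list medians and the dashed line is the median of all tested genes. Targets of TGF-β and Smad3 lie to the right with TGF-β (median 1.17) and to the left with siHoxc8 (median -0.60).

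Other genes with the course of Smad3, Smad7 and Pmepa1 over the 8 libraries were taken by Pearson's r on log2(FPKM + 1) among 8983 other genes with a mean of at least 5 FPKM. The libraries form 4 groups, so these are descriptions. The 5 nearest to Smad3 were Cobll1 (r = 0.995), Il19, an interleukin, AC119015.4, Mau2, a cohesin loader, and Sun2, a protein of the nuclear envelope. Il19 stood at 28.8 and 27.2 FPKM in control and 0.626 and 0.104 with siHoxc8, a wider range than that of Smad3. Nearest to Smad7 were RGD621098 (r = 0.991), Pdgfa, a growth factor chain, Ninj1, Bag3 and Klhl2, and Pdgfa stood at 19.0 and 19.7 FPKM in control and 51.1 and 61.2 with MetR. Nearest to Pmepa1 were Ripk2 (r = 0.995), a kinase of innate immunity, Shc1, an adaptor protein, AABR07031193.1, Nuak1, a kinase, and Cnn2, calponin 2. Nuak1 stood at 18.8 and 17.8 FPKM in control and at 83.5 to 104.9 FPKM in the 6 libraries with TGF-β.

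RefSeq lists 2 pseudogenes of Smad2 and 1 of Ski, and 1 other gene that overlaps Smad2 and 1 that overlaps Smad5. The strand setting of the counting is not given in the sources used here, so some reads of these 3 genes could be shared with those copies or neighbours.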

How the data were processed

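RNA-seq libraries from total RNA of 8 samples were used. The authors deposited 1 table of FPKM values per gene symbol. The submitters' processing notes name build rn6 and the tools featureCounts, deepTools, Trim Galore and Bowtie2 2.3.5.1, with no role for any. Annotation and strand setting were not given in the sources used here, and the 20 chromatin immunoprecipitation and input samples were not analysed here.

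Whole reads were recovered from the steps between values (tolerance 0.02 reads) for 100.0% of the 19435 genes above 0. These were read as depth and used with limma-voom as an alternative. Log2(FPKM + 1) was fitted with limma 3.58.1 in R 4.3.3, with 1 coefficient per group over all 8 libraries, no covariates and a variance trend (4 residual and 3.47 prior degrees of freedom), for the genes that reached 1 FPKM in 2 or more libraries. Calls are adjusted p under 0.05. The 16 alternatives were a pseudocount of 0.1, 2 other filters, median ratio rescaling, quantile normalization, limma-voom, only the 4 libraries compared, the replicate number as a block, and leaving out each library.

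The 10 genes, the 6 pathway lists, the 4 marker lists and the motifs were chosen with earlier results of these data known. Named genes are the 10, up to 3 called members of a list in each of the 3 main comparisons by size of change, and the 5 genes most like Smad3, Smad7 and Pmepa1. Smad9 and the fixed check of Hoxc8 are given besides, Smad9 having been chosen after its values were seen. A named gene of the target list is not reported here. Promoter windows come from RefSeq, build GRCr8, and 9 of the 10 genes were matched.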

Additional observations from a re-analysis of the deposited data

How the results depend on the processing

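Of the 960 values of the 10 genes in 6 comparisons under 16 alternatives, 888 kept their side of the threshold and, where called, their direction, and 72 did not. Smad6 in siHoxc8 against MetR went from 0.35 to 1.09 without MetR replicate 1 and turned to -0.38 without MetR replicate 2. Under the alternatives other than leaving out 1 library, the counts of called genes stayed within 1.5 times. Leaving out 1 library gave 4 to 7 of the 10 for TGF-β against control, 5 to 7 for MetR against TGF-β, 1 to 4 for siHoxc8 against TGF-β (1 without siHoxc8 replicate 2), 5 to 8 for MetR against control (5 without either control), 7 to 10 for siHoxc8 against control and 3 to 5 for siHoxc8 against MetR (5 without either TGF-β or either MetR library). Over all tested genes it gave 2320 to 6298, 5252 to 7327, 3152 to 6734, 5181 to 7656, 3843 to 7200 and 4621 to 7222 in the same order. The counts that moved by over 1.5 times were those without either control library for TGF-β against control (2320 and 2472), without either siHoxc8 library for siHoxc8 against TGF-β (3152 and 3367), and for siHoxc8 against control without either control (3843 and 3893) or either siHoxc8 library (3893 and 3982). A group left with 1 library is assumed to vary like the others. Same-numbered libraries of different groups had correlations of their deviations from -0.0196 to 0.0239, except for TGF-β with MetR, at 0.202. The labels do not say whether same-numbered libraries were handled together, and the source of that correlation was not tested. With the replicate block 5, 6, 3, 8, 7 and 3 of the 10 genes were called and 4750, 6639, 5424, 7044, 6011 and 6685 genes in all, within 1.5 times of the counts without it. The lowest count of any of the 10 genes in a library was 128 reads.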
